A study of Mus musculus with 8 samples.

Results

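The 10 mucosal barrier glycoprotein genes described here are Pigr, Dmbt1, Fcgbp, Tff3, Lypd8, Msln, Muc1, Muc4, Muc20 and Agr2. They were found as the rows whose Ensembl identifier carries these symbols, 10 of 55335 genes, and each symbol matched 1 row. Pigr, Dmbt1, Fcgbp, Tff3, Lypd8 and Msln were chosen because their values in these libraries differ widely between groups, and the mucins and Agr2 were added as relatives by function. All values of the 10 genes are therefore a description, with no test. All 10 reached the minimum of 1 FPKM in at least 2 libraries that the fit across all genes required.

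RNA was measured in mouse prostate epithelial cells in 8 libraries, 2 in each of 4 groups. The design text of the series describes a sort for EpCAM+, CD24a+ and CD49f-low cells. All mice shared the genotype that the labels call PP. PPK mice also carried Kmt2cPC-/-, where Kmt2c encodes a histone methyltransferase. The groups were PP sham and PPK sham, both at 3.5 months of age, and PP ADT and PPK ADT, both at 6.5 months. ADT usually stands for androgen deprivation therapy, and how it was done is not in the labels. Treatment and age changed together, so their parts cannot be told apart, and each such difference is one of ADT with age. The labels do not give the promoter that drives the prostate deletion, nor whether replicates A and B came from separate animals, so the spread within a pair may be technical. In bulk RNA, fewer cells of a type and less RNA per cell cannot be told apart.

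Values are FPKM, fragments scaled to transcript length and library size, so levels can be compared between genes per length. Depth is unknown because the files hold no counts. Summed FPKM lay between 284015 and 333977 per library, and Pearson correlations across genes were 0.986 to 0.988 within pairs. Kmt2c was lower in PPK but not at 0, at 8.67 and 8.15 FPKM in PPK sham against 13.3 and 13.9 in PP sham, and 6.60 and 6.36 in PPK ADT against 10.3 and 9.33 in PP ADT. Epcam, a sorted antigen, stood between 309.8 and 565 FPKM in every library. Differences are log2(FPKM + 1) of the first group minus that of the reference, with the standard error of a limma fit over all 8 libraries, and they understate the change of low genes.

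A mucosal surface is covered by secreted mucus, by membrane mucins that stand on the cells, and by proteins that carry or bind antibodies and microbes. Gel proteins are folded and joined by disulfide bonds in the endoplasmic reticulum, where Agr2, a disulfide isomerase relative, is needed for mucin production in the mouse intestine. Fcgbp is a large secreted glycoprotein of mucus, and Tff3 is a small trefoil peptide known to form a disulfide-linked complex with it. Pigr carries polymeric IgA and IgM through epithelial cells and releases them as secretory antibody. Dmbt1 is a secreted scavenger-receptor glycoprotein that binds bacteria, Lypd8 is a lipid-anchored glycoprotein that keeps flagellated bacteria off the mouse colon epithelium, and Msln encodes mesothelin, a lipid-anchored glycoprotein of mesothelium. Muc1, Muc4 and Muc20 are membrane mucins of glandular epithelium.

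RefSeq promoter windows on GRCm38.p6, from 250 bases before the transcript start to 25 bases from it, were matched by symbol for 7 of the 10 genes, in 8 windows. In these, 6 motifs were searched on both strands: AANNGAAA (core of interferon-regulatory-factor sites), CACGTG and CAGCTG (E-boxes), TGTTTNC (forkhead core), GGAAGT (ETS core) and AGAACA (half-site of steroid receptors). Windows of 2 pairs of genes with alike profiles are shown, Pigr (chr1:130826434-130826708, plus strand) with Lypd8 (chr11:58378782-58379056, plus strand), and Muc1 (chr3:89228806-89229080, plus strand) with Muc20 (chr16:32797411-32797685, minus strand), 5′ to 3′, with every motif match in capitals.
Pigr: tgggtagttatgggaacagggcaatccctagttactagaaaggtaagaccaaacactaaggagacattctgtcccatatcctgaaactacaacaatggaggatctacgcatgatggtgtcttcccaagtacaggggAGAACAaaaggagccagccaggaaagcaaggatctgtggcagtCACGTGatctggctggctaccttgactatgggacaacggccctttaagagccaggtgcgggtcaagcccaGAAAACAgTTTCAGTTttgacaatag
Lypd8: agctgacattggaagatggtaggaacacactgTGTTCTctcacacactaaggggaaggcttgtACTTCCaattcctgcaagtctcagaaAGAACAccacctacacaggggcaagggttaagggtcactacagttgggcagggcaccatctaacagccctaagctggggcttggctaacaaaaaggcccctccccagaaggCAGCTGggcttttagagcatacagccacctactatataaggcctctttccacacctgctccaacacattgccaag
Muc1: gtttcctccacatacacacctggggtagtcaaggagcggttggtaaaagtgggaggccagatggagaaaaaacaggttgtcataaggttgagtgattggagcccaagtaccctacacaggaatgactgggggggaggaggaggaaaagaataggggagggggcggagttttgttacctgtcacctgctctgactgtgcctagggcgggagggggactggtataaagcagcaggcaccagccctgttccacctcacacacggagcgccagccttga
Muc20: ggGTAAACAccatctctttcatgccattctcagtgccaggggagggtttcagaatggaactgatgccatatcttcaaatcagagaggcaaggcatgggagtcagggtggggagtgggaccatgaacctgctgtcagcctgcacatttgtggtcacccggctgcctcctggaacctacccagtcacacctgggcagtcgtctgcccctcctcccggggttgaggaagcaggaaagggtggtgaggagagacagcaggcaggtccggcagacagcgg
In the Pigr window, CACGTG lies at bases -71 to -66 from the start, AGAACA at -114 to -109, TGTTTNC on the other strand at -1 to 6 and AANNGAAA on the other strand at 8 to 15. In the Lypd8 window, AGAACA lies at -161 to -156 and, on the other strand, at -218 to -213, CAGCTG at -50 to -45, and GGAAGT on the other strand at -187 to -182. Muc20 holds TGTTTNC on the other strand at -248 to -242, and the Muc1 window holds none of the 6 motifs. No matches overlap. Of 32851 promoters, 22.78% hold AANNGAAA, 6.682% CACGTG, 14.54% CAGCTG, 19.21% TGTTTNC, 22.02% GGAAGT and 17.56% AGAACA. The last of these is held by both the Pigr window and the Lypd8 window shown. A further Lypd8 window (chr11:58380396-58380670, plus strand, not shown) holds AANNGAAA at -70 to -63 and TGTTTNC at -104 to -98, both also found in the Pigr window, while no match is shared by the Muc1 and Muc20 windows. A match describes letters in a window and is not a binding site.

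The mucus-assembly genes Fcgbp, Tff3 and Agr2 followed 1 order, highest in PP sham, then PPK sham, then PP ADT, and lowest in PPK ADT. Fcgbp (ENSMUSG00000047730, chromosome 7, 28071236 to 28120862, GRCm38) stood at 239 and 237 FPKM in PP sham, 158 and 156 in PPK sham, 10.9 and 10.3 in PP ADT, and 0.505 and 0.408 in PPK ADT. No neighbouring groups in that order overlapped, and the mean of PP sham was 521.6 times that of PPK ADT, the widest ratio among the 9 genes with no group at 0. By mean level, Fcgbp ranked 149 of 55335 genes in PP sham and 14894 in PPK ADT.

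Tff3 (ENSMUSG00000024029, chromosome 17, 31125306 to 31129646) stood at 191.5 and 179 FPKM in PP sham, 84.0 and 84.7 in PPK sham and 8.52 and 9.64 in PP ADT, and was listed at 0 in both PPK ADT libraries. Its groups did not overlap, and no fold is given against the group at 0. None of 10 housekeeping genes checked was at 0 in any library. Agr2 (ENSMUSG00000020581, chromosome 12, 35992907 to 36004087) stood at 98.6 and 100.7 FPKM in PP sham, 47.3 and 55.4 in PPK sham, 23.0 and 23.7 in PP ADT, and 8.21 and 7.57 in PPK ADT. Agr2 kept the same order over a narrower span, with a mean in PP sham 12.63 times that in PPK ADT.

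The transport, scavenger and surface genes Pigr, Dmbt1, Lypd8 and Msln had another order, highest in PPK sham and lowest in PPK ADT. Pigr (ENSMUSG00000026417, chromosome 1, 130826684 to 130852249) stood at 1041 and 1037 FPKM in PP sham, 1440 and 1461 in PPK sham, 1074 and 1066 in PP ADT, and 31.6 and 34.4 in PPK ADT. It ranked 25 to 33 of 55335 genes by mean level in the first 3 groups and 1289 in PPK ADT. Groups did not overlap, although PP ADT lay above PP sham by a ratio of means of 1.03.

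Lypd8 (ENSMUSG00000013643, chromosome 11, 58379043 to 58390728) stood at 81.2 and 81.8 FPKM in PP sham, 251.5 and 242.6 in PPK sham, 65.2 and 69.3 in PP ADT, and 1.39 and 1.42 in PPK ADT. Its highest group mean was 175.9 times its lowest, and no groups overlapped. Dmbt1 (ENSMUSG00000047517, chromosome 7, 131032053 to 131121630) stood at 3.83 and 4.17 FPKM in PP sham, 49.5 and 49.7 in PPK sham, 3.76 and 4.04 in PP ADT, and 0.313 and 0.508 in PPK ADT. The PP sham and PP ADT libraries of Dmbt1 overlapped, and PPK sham stood far above both.

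Msln (ENSMUSG00000063011, chromosome 17, 25748613 to 25754378) stood at 4.87 and 4.30 FPKM in PP sham, 47.9 and 45.1 in PPK sham, 7.04 and 6.37 in PP ADT, and 2.20 and 2.01 in PPK ADT. PPK sham was again far above the other 3 groups, which did not overlap each other. Because mesothelin marks mesothelium, a list of 7 other mesothelial markers was read beside it. Their summed level was 0.0633 to 0.145 FPKM in PP sham, 0.256 to 0.304 in PPK sham, 0.205 to 0.227 in PP ADT and 1.24 to 1.69 in PPK ADT. No group mean of the 7 reached 1 FPKM, Calb2 was at 0 in every library, and most of the PPK ADT sum was Bnc1 at a mean of 0.941 FPKM, which basal epithelium also makes. The part of mesothelial cells in the Msln values was not tested.

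**Figure D1:**
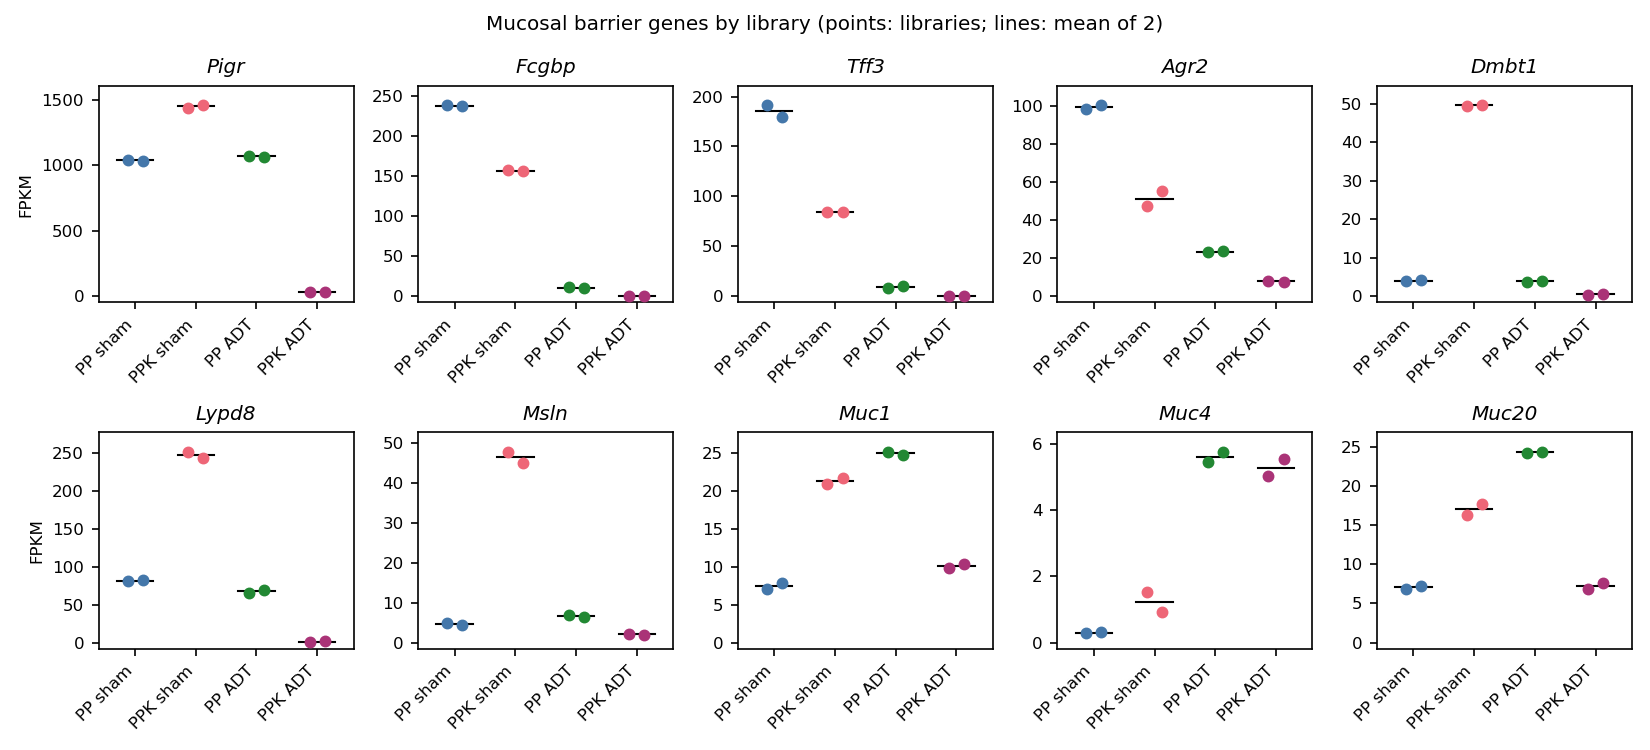
FPKM of the 10 mucosal barrier genes (vertical axes, linear, 1 scale per gene) in the 8 libraries by group (horizontal axis); points are libraries and lines the mean of 2. Fcgbp, Tff3 and Agr2 step down from PP sham to PPK ADT, Pigr, Dmbt1, Lypd8 and Msln peak in PPK sham, and Muc1, Muc4 and Muc20 are highest in PP ADT.

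The membrane mucins had their highest means in PP ADT. Muc1 (ENSMUSG00000042784, chromosome 3, 89229057 to 89233381) stood at 7.13 and 7.83 FPKM in PP sham, 20.9 and 21.7 in PPK sham, 25.2 and 24.8 in PP ADT, and 9.85 and 10.3 in PPK ADT. Muc20 (ENSMUSG00000035638, chromosome 16, 32777419 to 32797435, minus strand) stood at 6.90 and 7.25 FPKM in PP sham, 16.3 and 17.7 in PPK sham, 24.2 and 24.4 in PP ADT, and 6.79 and 7.56 in PPK ADT. Muc1 and Muc20 thus stood at nearly the same levels, but Muc1 was separate in all 4 groups, while the PP sham and PPK ADT libraries of Muc20 overlapped.

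Muc4 (ENSMUSG00000079620, chromosome 16, 32735886 to 32782391, plus strand) stood at 0.282 and 0.312 FPKM in PP sham, 1.53 and 0.936 in PPK sham, 5.45 and 5.77 in PP ADT, and 5.02 and 5.53 in PPK ADT. It was the member whose PPK ADT and PP ADT libraries overlapped, and both ADT groups lay above both sham groups. Muc4 and Muc20 lie tail to tail on opposite strands, their gene bodies share 4973 bases and their exons 627, and the sources do not state whether fragments were counted by strand. Per the labels the library kit was strand-specific, and Muc20 read 1.35 to 24.5 times as high as Muc4 across libraries, so the lower values of Muc4 in sham are uncertain.

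Among the 10 genes, likeness was measured as the root mean square difference between log2(FPKM + 1) profiles over the 8 libraries, each centred on its own mean. The pairs with the smallest values were Muc1 with Muc20 at 0.17, Fcgbp with Tff3 at 0.263, Dmbt1 with Msln at 0.486 and Lypd8 with Pigr at 0.561. This measure grows with the span of a gene's own profile, so these values do not rank the pairs by likeness. The ratio of Tff3 to Fcgbp lay between 0.533 and 0.935 in the 6 libraries where Tff3 was above 0, although the means of Fcgbp and Tff3 in PP sham were 22.43 and 20.41 times those in PP ADT. The ratio of Muc1 to Muc20 lay between 1.02 and 1.45 in all 8 libraries. Agr2 did not track Fcgbp as closely, with a ratio to Fcgbp of 0.300 to 0.425 in sham libraries, 2.11 and 2.30 in PP ADT and 16.3 and 18.6 in PPK ADT.

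**Figure D2:**
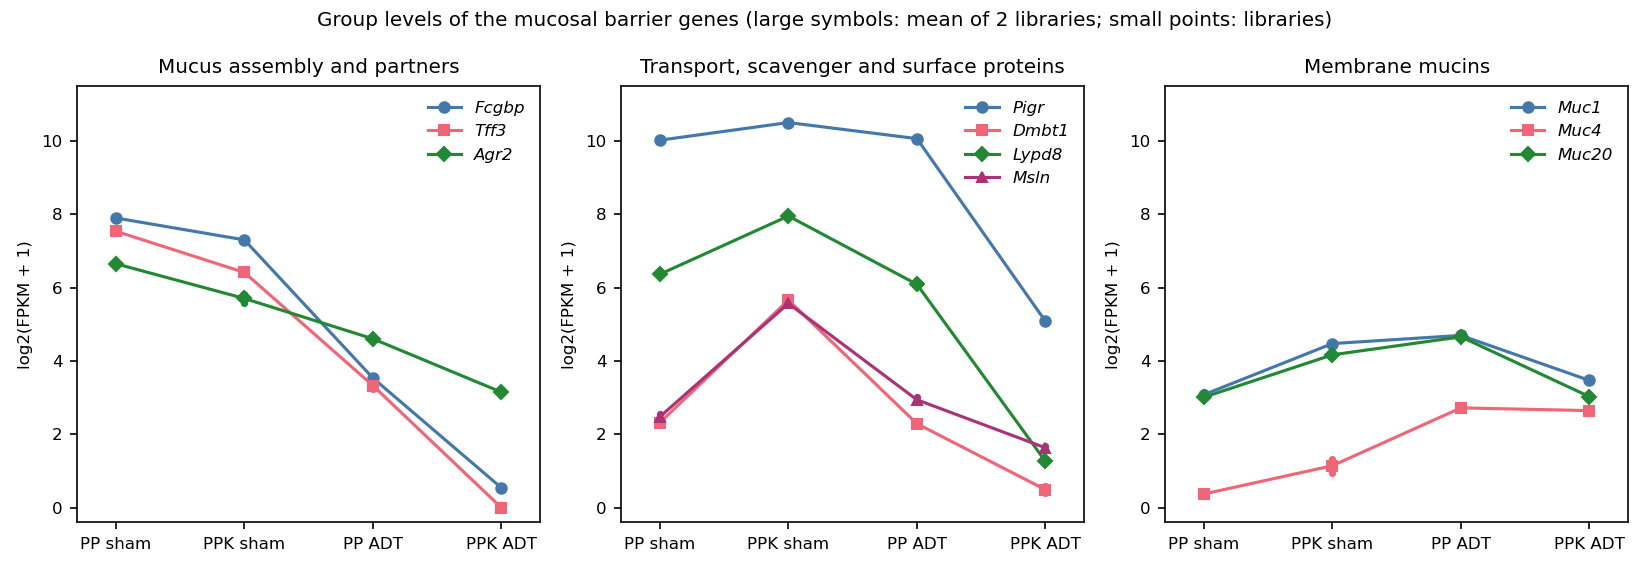
Group means of log2(FPKM + 1) (vertical axis) in the 4 groups (horizontal axis), in 3 panels by role; large symbols are means of 2 libraries and small points the libraries. Lines join groups of 1 gene and are no time course; Tff3 reaches 0 in PPK ADT, and the curves of Muc1 and Muc20 nearly coincide.

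The comparison of genotypes in sham mice asked which of these genes differed where Kmt2c was targeted as well. PPK sham stood above PP sham for 7 of the 10 genes without overlap, against 30.5% of the 14000 genes tested, and below PP for 3, against 34.3%. Nothing is read from these shares, since the 10 genes were chosen on these values. Dmbt1 was 12.42 times and Msln 10.15 times as high in PPK sham as in PP sham, with log2 differences of 3.34 ± 0.086 and 3.09 ± 0.079 (SE). Lypd8 was 3.03 times as high (1.59 ± 0.040) and Pigr 1.40 times (0.48 ± 0.038). The membrane mucins were higher too, Muc1 by 1.39 ± 0.057, Muc20 by 1.16 ± 0.066 and Muc4 by 0.77 ± 0.13 on the log2 scale. The mucus-assembly genes were lower, with Fcgbp at -0.60 ± 0.047, Tff3 at -1.12 ± 0.063 and Agr2 at -0.95 ± 0.077.

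Genes around these 10 were read from 6 lists of 94 genes, of which 58 passed the filter and were tested, 32 were under it and 4 had no row. A gene that passed the filter only through the groups where it was high was bound to differ, so the counts describe the genes tested and no more. The lists were also chosen with earlier results of these data known. Nothing is therefore read, in any comparison, from their shares beside those of all genes. The gel-forming mucins Muc5ac, Muc5b and Muc6 and the trefoil genes Tff1 and Tff2 were under the filter. In PPK against PP sham, 14 of the 58 rose and 21 fell by limma with Benjamini-Hochberg adjustment over all genes, 60.3% in all, against 28.6% of all genes tested (13.7% higher and 14.9% lower). Their median log2 difference was -0.10, beside -0.01 over all genes.

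Other mucins and mucus genes were split. Muc19, a gel-forming mucin known from mouse salivary glands, fell from 43.9 to 17.2 FPKM (-1.30 ± 0.073, limma adjusted p = 5.75e-05), and Clca1, a secreted protease of goblet cell mucus, rose from 18.8 to 98.2 FPKM (2.33 ± 0.046, limma adjusted p = 1.5e-06). In the mucus network list, 2 of 7 tested genes rose and 2 fell, the latter including Ern2, the stress sensor kinase of mucous epithelium (7.85 against 12.7 FPKM, -0.63 ± 0.11, limma adjusted p = 0.00539). Of the genes that rose, Clca2 no longer passed without PP sham replicate B (limma adjusted p = 0.053). Of 16 tested genes of mucin O-glycosylation, 5 rose and 8 fell. Fut2, which makes the H antigen, fell from 19.8 to 10.6 FPKM (-0.84 ± 0.099), and Galnt5, an enzyme that starts O-glycans, from 4.82 to 1.57 (-1.18 ± 0.094).

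In the list of mucosal secretory transcription factors, 1 of 14 tested genes rose and 6 fell in PPK sham. Atoh1, which directs secretory cell fate in the gut, fell from 11.6 and 13.7 FPKM to 2.77 and 2.25 (-1.96 ± 0.11, limma adjusted p = 6.37e-05), and Klf4, a factor of goblet and barrier epithelium, from 73.3 to 36.7 (-0.98 ± 0.046). Elf3, an epithelial ETS factor, rose from 388 to 523 FPKM (0.43 ± 0.024, limma adjusted p = 5.73e-05). Among 10 tested genes of immunoglobulin and receptor transport, the machinery beside Pigr, 3 rose, none fell and 7 did not pass. Rab11fip5, an adaptor of recycling endosomes, rose from 2.77 to 4.57 FPKM (0.56 ± 0.097, limma adjusted p = 0.00639). The others, the antibody receptor genes Fcgrt and Fcamr, no longer passed without PP sham replicate A or without PPK sham replicate A. Fcgrt, at 0.97 in the reported fit, was at 0.78 and 0.77 there. Fcamr, at 0.53, also did not pass with pseudocount 0.1 or without the filter (limma adjusted p = 0.0647 and 0.105). The same held for Fcamr without PP sham replicate B, PPK sham replicate B or either PP ADT library. Of 7 tested relatives of Lypd8, Msln and Dmbt1, 3 rose and 3 fell. Sftpd, a collectin that binds microbes, rose from 1.40 to 5.35 FPKM (1.41 ± 0.13, limma adjusted p = 0.000391).

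The same comparison was made in ADT mice. There PPK stood below PP for 9 of the 10 genes without overlap, against 36.8% of all genes tested, and above PP for 0, against 43.3%. The exception was Muc4, at a log2 difference of -0.08 ± 0.13 with overlapping libraries. Lypd8 was 47.89 times, Pigr 32.47 times and Fcgbp 23.26 times as high in PP ADT as in PPK ADT, with log2 differences of -4.83 ± 0.040, -4.98 ± 0.038 and -3.00 ± 0.047. Dmbt1 was lower by a log2 difference of -1.80 ± 0.086, Muc20 by -1.63 ± 0.066, Agr2 by -1.46 ± 0.077, Msln by -1.31 ± 0.079 and Muc1 by -1.23 ± 0.057. Tff3, at 8.52 and 9.64 FPKM in PP ADT, was at 0 in PPK ADT.

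Of the 58 companion genes, 19 rose and 29 fell in PPK against PP ADT, 82.8% in all, against 59.6% of all genes (32.5% higher and 27.1% lower). Their median was -0.20, beside 0.05 over all genes. Muc13, a membrane mucin of the gut, fell from 7.99 to 0.313 FPKM (-2.79 ± 0.13, limma adjusted p = 4.26e-06), and Clca1 from 60.3 to 7.46 (-2.86 ± 0.046, limma adjusted p = 7.03e-08). Muc15, another membrane mucin, rose from 0.451 to 3.60 FPKM (1.67 ± 0.11). In the mucus network list 4 of 7 rose and 2 fell, but Pdia3, a disulfide isomerase gene counted as risen at 0.29, passed as lower under quantile normalization (-0.17, limma adjusted p = 0.0106). Olfm4, a secreted glycoprotein of crypts, rose from 20.2 to 84.7 FPKM (2.02 ± 0.075) and Clca2, a gene of stratified epithelium, from 0.790 to 14.1 (3.07 ± 0.097). Muc15 and Clca2 reached the 1 FPKM of the filter only in PPK ADT, so both were bound to differ.

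Of the O-glycosylation genes, 5 of 16 rose and 10 fell in PPK ADT. Galnt6, which starts O-glycans, stood at 66.2 and 65.5 FPKM in the PPK ADT libraries and 6.12 and 5.71 in PP ADT (3.27 ± 0.10, limma adjusted p = 7.72e-07). B4galnt2, which caps mucin glycans with N-acetylgalactosamine, fell from 5.34 to 0.445 FPKM (-2.13 ± 0.068) and Fut2 from 7.12 to 0.987 (-2.04 ± 0.099). Secretory transcription factors moved both ways, 6 of 14 higher and 6 lower. Of the 6 higher, Elf3 at 0.07 ± 0.024 had -0.22 under quantile normalization (limma adjusted p = 0.000309), passed neither under median-of-ratios scaling (0.306) nor without any 1 of the PP sham, PP ADT or PPK ADT libraries (0.0511 to 0.157), and Ehf, a related factor, did not pass under quantile normalization (0.468). Spdef, a goblet cell ETS factor, fell from 3.26 to 0.898 FPKM (-1.17 ± 0.12, limma adjusted p = 0.000174), whereas Klf4 rose from 36.0 to 122 (1.74 ± 0.046) and Klf5 from 56.0 to 176 (1.63 ± 0.041).

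In the transport list, 1 of 10 tested genes rose, 4 fell and 5 did not pass in PPK ADT, where Pigr stood at 31.6 and 34.4 FPKM. Exoc4, an exocyst subunit, fell from 22.2 to 9.26 FPKM (-1.18 ± 0.047, limma adjusted p = 2.4e-06), and Myo5b, the motor of recycling endosomes, from 11.8 to 6.88 (-0.71 ± 0.081). Rab25, a GTPase of the same compartment, rose from 33.0 to 51.6 FPKM (0.63 ± 0.045, limma adjusted p = 3.69e-05). Of the relatives of Lypd8, Msln and Dmbt1, 2 of 7 rose and 5 fell. Lypd3, a family member of Lypd8 known from squamous epithelium, stood at 282 FPKM in both PPK ADT libraries against 25.9 and 25.0 in PP ADT (3.42 ± 0.072, limma adjusted p = 1.67e-07). Sftpd fell from 25.0 to 0.754 FPKM (-3.88 ± 0.13), and Lgals3bp, a scavenger-domain glycoprotein like Dmbt1, from 233 to 80.6 (-1.52 ± 0.035).

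**Figure D3:**
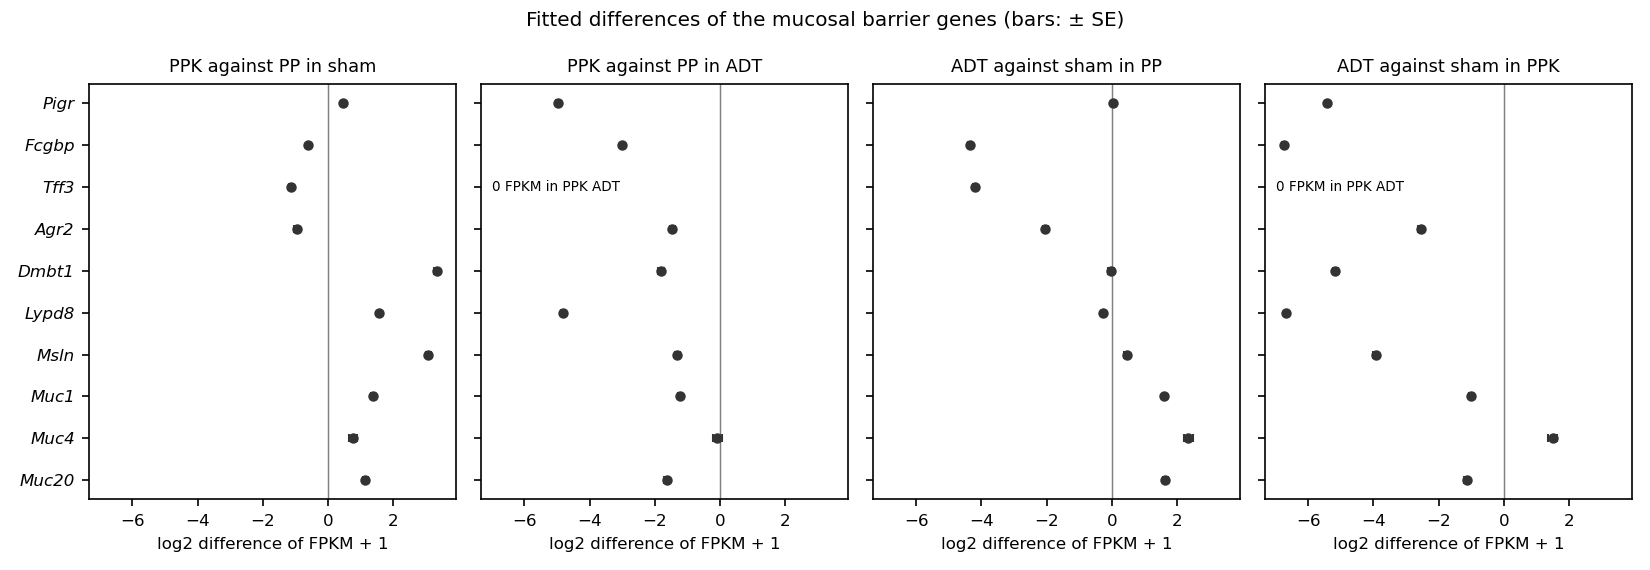
Fitted log2 differences of FPKM + 1 (horizontal axis) of the 10 genes (vertical axis) in the 4 comparisons of groups, with bars of ± SE that are mostly smaller than the points. In PPK against PP, 7 genes lie right of 0 in sham and none in ADT; Tff3 has no value against PPK ADT, where it is at 0.

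With ADT and age in PP, 5 of the 10 genes were higher without overlap, against 30.7% of all genes tested, and 4 lower, against 43.4%. The mucus-assembly genes Fcgbp and Tff3 carried the widest differences. Fcgbp was 22.43 times and Tff3 20.41 times as high in PP sham as in PP ADT (-4.36 ± 0.047 and -4.21 ± 0.063), and Agr2 4.27 times (-2.05 ± 0.077). The membrane mucins were higher in PP ADT, Muc4 by 2.35 ± 0.13, Muc20 by 1.65 ± 0.066 and Muc1 by 1.62 ± 0.057. Pigr at 0.04 ± 0.038 and Dmbt1 at -0.03 ± 0.086 differed by about their SE or less, and their signs turned with scaling: Pigr, counted among the 5, was at -0.18 under quantile normalization, and Dmbt1 at 0.05 there and at 0.03 under median-of-ratios scaling. Lypd8 at -0.27 ± 0.040 and Msln at 0.46 ± 0.079 differed by less than in the other comparisons of groups.

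Of the 58 companion genes, 18 rose and 28 fell with ADT and age in PP, 79.3% in all, against 44.2% of all genes (19.1% higher and 25.1% lower), with a median of -0.18 beside -0.07 over all genes. The larger side over all genes turned with scaling, from 2667 higher and 3518 lower to 3145 and 2907 under median-of-ratios scaling and 3006 and 2916 under quantile normalization. Muc19 fell from 44.2 and 43.6 FPKM to 0.0966 and 0.167 (-5.31 ± 0.073, limma adjusted p = 9.54e-08), Ern2 from 12.7 to 0.548 (-3.15 ± 0.11), and B4galnt2 from 81.5 to 5.34 (-3.70 ± 0.068, limma adjusted p = 2.59e-07). No secretory transcription factor of 14 tested rose and 11 fell, among them Elf3, which no longer passed under quantile normalization (adjusted p = 0.065). Atoh1 fell from 12.7 to 0.0604 FPKM (-3.68 ± 0.11, limma adjusted p = 1.87e-06), Creb3l4, a membrane-bound factor of secretory cells, from 11.1 to 3.33 (-1.49 ± 0.12) and Spdef from 7.67 to 3.26 (-1.02 ± 0.12). Muc19, Ern2 and Atoh1 reached the 1 FPKM of the filter only in sham libraries, so these genes were bound to differ. Clca1 rose from 18.8 to 60.3 FPKM (1.63 ± 0.046), Galnt6 from 0.464 to 5.92 (2.25 ± 0.10) and Sftpd from 1.40 to 25.0 (3.43 ± 0.13, limma adjusted p = 3.43e-06).

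Transport genes were split with ADT and age in PP, 3 of 10 higher and 3 lower. Rab11fip5 rose from 2.77 to 10.8 FPKM (1.64 ± 0.097, limma adjusted p = 2.92e-05) and Rab25 fell from 43.0 to 33.0 (-0.37 ± 0.045, limma adjusted p = 0.00082), while the other 2 that fell, Fcamr and the adaptor gene Ap1m2, no longer passed without PP sham replicate A (limma adjusted p = 0.0602 and 0.0544). Immunoglobulin chain genes, whose products Pigr carries, were low in all libraries, with Igkc at most at 8.51 FPKM and Ighm at most at 3.25. Igha, the heavy chain of IgA, stood at 0.131 to 0.192 FPKM in PP sham and 0 to 0.0213 in PPK sham. In PP ADT it stood at 1.94 to 2.33, and in PPK ADT at 0 to 0.0464. Group means in the same order were 0.176, 0.227, 7.99 and 6.58 for Igkc and 0, 0.351, 2.88 and 1.29 for Ighm. Those of Pigr were 1039, 1450, 1070 and 33.0 FPKM, and a relation to these chains was not tested.

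With ADT and age in PPK, 9 of the 10 genes were lower without overlap, against 40.4% of all genes tested, and 1, Muc4, was higher, against 40.9%. Fcgbp was 344.1 times, Lypd8 175.9 times, Dmbt1 120.9 times, Pigr 44.0 times and Msln 22.1 times as high in PPK sham as in PPK ADT. On the log2 scale these differences were -6.76 ± 0.047, -6.69 ± 0.040, -5.17 ± 0.086, -5.42 ± 0.038 and -3.94 ± 0.079. Agr2 was lower by a smaller difference of -2.56 ± 0.077, Muc20 of -1.14 ± 0.066 and Muc1 of -1.01 ± 0.057, and Muc4 was higher by 1.50 ± 0.13.

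Of the 58 companion genes, 17 rose and 33 fell with ADT and age in PPK, 86.2% in all, against 62.6% of all genes (31.9% higher and 30.7% lower), with a median of -0.53 beside 0.0 over all genes. Muc19 fell from 17.2 to 0.0760 FPKM (-4.08 ± 0.073), Muc13 from 14.2 to 0.313 (-3.55 ± 0.13), B4galnt2 from 50.7 to 0.445 (-5.16 ± 0.068) and Clca1 from 98.2 to 7.46 (-3.55 ± 0.046, limma adjusted p = 2.02e-08). Secretory transcription factors were split, 4 of 14 higher and 10 lower. Of the 4 higher, Ehf was at -0.004 under quantile normalization (limma adjusted p = 0.958) and did not pass without the filter (0.0579). Of the 10 lower, Creb3l1 did not pass with pseudocount 0.1 or without the filter (limma adjusted p = 0.0526 and 0.102). Nor did it pass without any 1 library, save PPK sham replicate B. At -0.663 in the reported fit, it was at -0.331 without PPK sham replicate A and -0.542 without PPK ADT replicate A. Spdef fell from 6.73 to 0.898 FPKM (-2.03 ± 0.12), and Irf1, an interferon-induced factor known to induce PIGR in human cells, from 26.5 and 27.1 to 7.7 and 5.9 (-1.84 ± 0.27, limma adjusted p = 0.00114). Atoh1, at 2.77 and 2.25 FPKM in PPK sham, was listed at 0 in both PPK ADT libraries. Muc19 and Atoh1 reached the 1 FPKM of the filter only in sham libraries, so both were bound to differ. Klf4 rose from 36.7 to 122 FPKM (1.71 ± 0.046), Galnt6 from 1.71 to 65.9 (4.63 ± 0.10) and Lypd3 from 12.7 to 282 (4.37 ± 0.072, limma adjusted p = 4.87e-08).

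**Figure D4:**
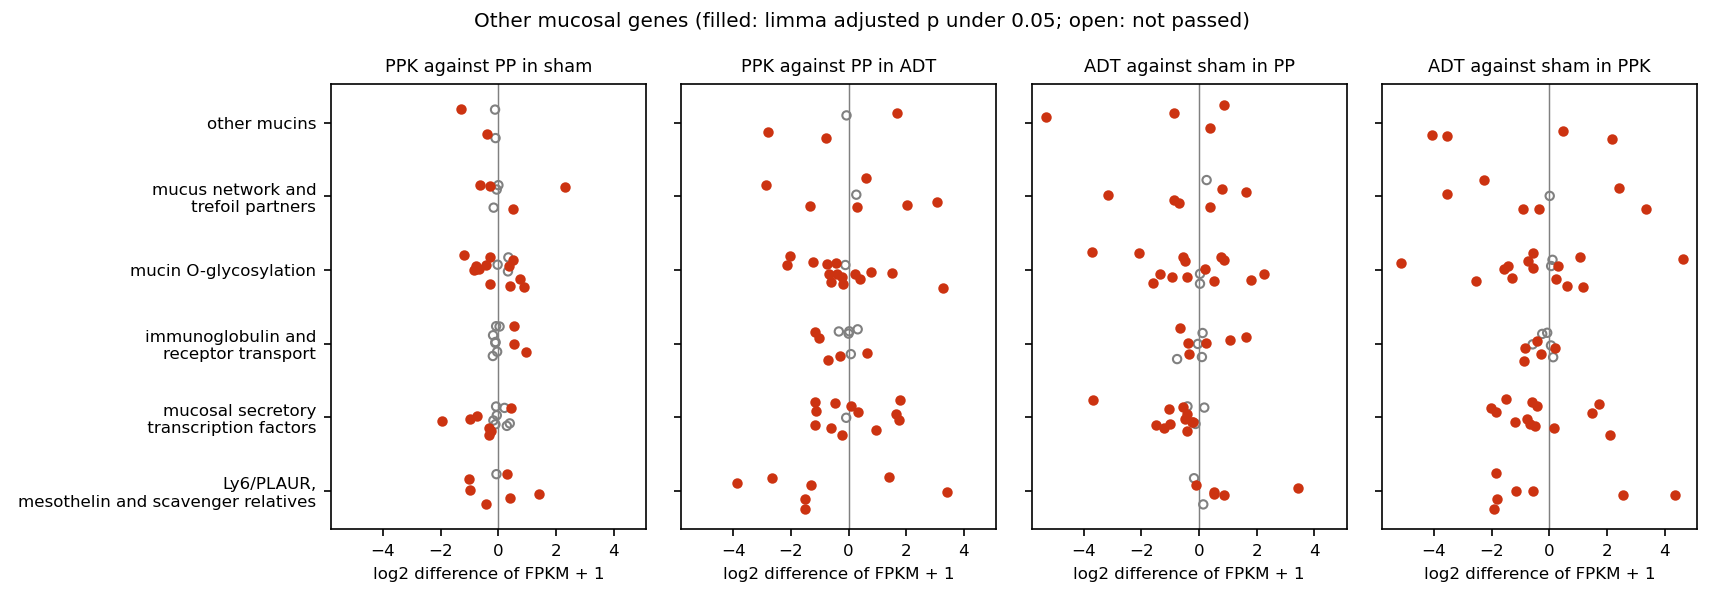
Fitted log2 differences of FPKM + 1 (horizontal axis) of the tested genes of the 6 companion lists (rows) in the 4 comparisons of groups; each point is a gene, filled where limma's adjusted p was under 0.05, and values against a group at 0 are not drawn. Most points in the ADT comparisons are filled, and the secretory transcription factors lie at or left of 0 for ADT with age in PP save for points that did not pass.

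For 6 of the 10 genes PPK was higher than PP in sham mice and lower than PP in ADT mice, with no overlap in either. These genes were Pigr, Dmbt1, Lypd8, Msln, Muc1 and Muc20. Of all genes tested, 13.1% turned this way, a share that leaves out those that turned the other way. Fcgbp, Tff3 and Agr2 were lower in PPK in both, against 13.8% of all genes. The fitted difference of both genotype differences (ADT minus sham) was -6.42 ± 0.057 for Lypd8, -5.46 ± 0.054 for Pigr, -5.14 ± 0.12 for Dmbt1 and -4.40 ± 0.11 for Msln. It was -2.79 ± 0.094 for Muc20, -2.62 ± 0.080 for Muc1, -2.40 ± 0.066 for Fcgbp, -0.85 ± 0.19 for Muc4 and -0.51 ± 0.11 for Agr2. The comparisons share libraries, so their values are set side by side and not correlated.

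Of the 58 companion genes, 20 rose and 27 fell in the difference of genotype effects, 81.0% in all, against 52.8% of all genes (30.0% higher and 22.8% lower), with a median of -0.05 beside 0.09 over all genes. Sftpd at -5.29 ± 0.18 (limma adjusted p = 1.91e-06) and Clca1 at -5.19 ± 0.065 (limma adjusted p = 4.65e-08) turned sign in the direction of Pigr, higher in PPK sham and lower in PPK ADT. Klf4 at 2.72 ± 0.065 (limma adjusted p = 5.45e-07) turned the other way. Lypd3 had 3.49 ± 0.10 (limma adjusted p = 1.04e-06), and its genotype difference in ADT mice, at 3.42, was opposite in sign to the -4.83 of Lypd8.

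Markers of other cells and of epithelial lineages were read beside these values. The summed level of 8 luminal markers was 5037 to 5105 FPKM in PP sham, 4808 to 4885 in PPK sham, 5748 to 5810 in PP ADT and 1801 to 1829 in PPK ADT. That of 7 basal markers was 895 to 902, 1358 to 1369, 870.4 to 881 and 5810 to 5879 FPKM, so PPK ADT, where 9 of the 10 genes were lower than in PP ADT, was low in luminal and high in basal markers. Most of the PPK ADT basal sum was Krt5 and Krt14, at means of 3243 and 1523 FPKM, against 95.5 and 15.8 in PP ADT. In the other groups most of it was Krt15, at means of 809, 1273 and 702, beside 965.5 in PPK ADT. Itga6 libraries of PP ADT and PPK ADT overlapped, at means of 33.4 and 34.1 FPKM. The part of lineage in the members' values was not tested.

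The sums of 13 macrophage and monocyte markers were 65.4 to 65.6, 133.5 to 135.3, 135.9 to 146.3 and 53.8 to 54.5 FPKM in the same order, with Fcgr1 at 0 in PP sham. Cd14, with group means of 41.5, 90.5, 98.8 and 15.0 FPKM, made most of the sum in PP sham, PPK sham and PP ADT. It did not in PPK ADT, where Cd68 was the highest of these markers. Other markers had other orders: Cd68 stood at 11.3, 21.1, 18.5 and 18.8, Lyz2 at 1.73, 7.59, 7.56 and 11.8, and Mrc1 at 7.51, 4.32, 2.94 and 0.385. Ptprc, the marker of all leukocytes, stood below 1 FPKM in every library. The sums of 9 fibroblast markers were 6.58 to 7.15, 20.6 to 20.9, 5.22 to 5.57 and 46.0 to 48.0 FPKM. Those of 6 urothelial markers were 112.7 to 115.7, 23.9 to 27.6, 94.0 to 96.3 and 62.5 to 68.1, of which Krt20 made 0.200, 0.638, 0.583 and 51.8 FPKM by group mean. The uroplakin genes were lower in PPK ADT than in PP ADT save Upk2 and Upk3b, with Upk1a at 10.6 against 60.0, Upk1b at 1.20 against 28.1 and Upk3a at 0.361 against 6.13. The 8 T cell markers summed to under 1 FPKM in every library, and the 8 neutrophil markers to 0.484 to 0.508, 4.92 to 6.66, 4.81 to 4.86 and 12.6 to 12.9. Most of the PPK ADT neutrophil sum was S100a9 and S100a8, at means of 9.38 and 2.19 FPKM. Ly6g, Mpo, Elane and Retnlg were at 0 in both PPK ADT libraries. Csf3r was lower in PPK ADT than in PP ADT (0.183 against 0.668) and Cxcr2 higher (0.993 against 0.0609). The 13 plasma and B cell markers summed to 89.4 to 91.3, 110.9 to 111.3, 147.2 to 147.5 and 359.5 to 363 FPKM, nearly all of it from Sdc1, which epithelium also makes, and Tnfrsf17 was at 0 in every library. The 6 smooth muscle markers summed to 1.80 to 12.0 FPKM and the 6 endothelial markers to 0.524 to 4.27 across libraries. The part of these cells in the results was not tested.

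The genes with the profiles most like each member were sought by the same root mean square measure over the 8 libraries among 7726 tested genes with a mean of at least 5 FPKM in their highest group. Nearest to Pigr were Slc39a4, a zinc transporter gene, at 0.347 and Spns2, a lipid transporter gene, at 0.394. Slc39a4 was also nearest to Lypd8, at 0.521, with group means of 80.9, 126.7, 55.5 and 2.37 FPKM in the order PP sham, PPK sham, PP ADT and PPK ADT. Next to Lypd8 came Ifit3b, an interferon-induced gene, at 0.748. For both Fcgbp and Tff3 the nearest were B4galnt2, at 0.647 and 0.633, and Rasd1, a Ras-related gene, at 0.8 and 0.742. Dmbt1 was nearest to Scgb1b20 at 0.663 and Entpd8, an ectonucleotidase gene, at 0.712, and Msln to Scgb1b3 at 0.518 and Svs6 at 0.539. Scgb1b3 and Svs6 had means of 5.66 and 5.15 FPKM in PPK sham and 0 in all other groups. Scgb1b20 had means of 0.773 in PP sham, 23.1 in PPK sham and 0 in both ADT groups. The likeness of these genes to Msln and Dmbt1 thus rests mainly on PPK sham. Reads of the Scgb family, of Ifit3b and its copies, can be split between near-identical genes.

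This distance grows with the span of a gene's own profile, so it is not compared between members. Muc20 was nearest to Clic4, a chloride intracellular channel gene, at 0.084 and Srgn, the serglycin gene, at 0.103. Muc1 was nearest to Gpa33, a surface glycoprotein gene of gut epithelium, at 0.105 and Il1b, a cytokine gene, at 0.118. Muc4 was nearest to Plau, the urokinase gene, at 0.101, with group means of 28.6, 53.5, 165 and 152 FPKM, and to Fhl3 at 0.146. Agr2 was nearest to Camk1d, a kinase gene, at 0.173 and Slc38a1, an amino acid transporter gene, at 0.179. A small distance over 8 libraries in 4 groups is a description of these libraries.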

How the data were processed

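RNA of sorted mouse prostate epithelium was measured in 8 libraries, 2 per group, grouped by the sample labels. The design text of the series gives both kinds of mice the same genotype, whereas the sample labels separate PP from PPK, and the sample labels were used. FPKM values were computed by the authors and deposited as 1 table per library; per the labels' protocols, total RNA went into strand-specific TruSeq libraries. FastQC 0.11.2 and the genome build mm10 are listed in the submitters' processing notes; for aligner, quantifier and annotation, the entry is not given in the sources used here. FPKM holds no counts and low values did not fall on steps of whole reads, so the depth is unknown and intervals for counting error cannot be had. The tables were joined on 55335 identifiers, of which GENCODE M21 on GRCm38 gave 55154 a symbol and left 181 without. Promoters came from RefSeq on GRCm38.p6. Organoid experiments named in the design text were not analysed here, and 1 allele shared by all mice and the values of 1 marker gene are not reported here.

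The 14000 genes that reached 1 FPKM in 2 or more libraries were tested. With limma 3.58.1 in R 4.3.3, log2(FPKM + 1) was modelled by 4 group means, with a trend of variance on mean (2.4 prior and 4 residual degrees of freedom). A gene passed with a two-sided Benjamini-Hochberg adjusted p under 0.05 over all genes tested. There were 5 comparisons: the genotypes PPK and PP in sham mice and in ADT mice, ADT against sham within each genotype, and the difference of the genotype differences. The 10 members have no test. An exact permutation test of 2 against 2 libraries cannot go below p = 0.333, so none was used. The fit was tested on simulated data with 200 changed genes. Python 3.11.15, pandas 2.3.3, numpy 2.4.6 and matplotlib 3.10.9 made tables and plots.

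The members and lists were chosen with earlier results of these data known. Named were the 10 members, Kmt2c, and from each of the 6 lists per comparison up to 4 genes that passed with the largest difference, or, in a list with none, the 2 of highest mean FPKM. For each member the 2 genes with the nearest profiles were named, leaving out members, predicted gene models and gene segments of immunoglobulins or T cell receptors. Some genes were named beside these after their values were seen. They were Elf3 and Ap1m2 for ADT with age in PP, and Ehf and Creb3l1 for ADT with age in PPK. Elf3, Ehf and Pdia3 in PPK against PP ADT, and marker genes, were also so named. Where a symbol had several identifiers, that with the highest mean was used. Genes at 0 in a whole group have no difference against it. The alternatives, each with 1 choice changed, were pseudocount 0.1, leaving out the filter, a filter at a mean of 5 FPKM, quantile normalization, median-of-ratios scaling, a replicate block, and each library left out.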

Additional observations from a re-analysis of the deposited data

Results flagged for a closer look

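Results are listed here where the genotype difference (PPK minus PP) differed between sham and ADT mice. Values are the fitted difference of both, ADT minus sham, on the log2(FPKM + 1) scale. Groups of 2 libraries were not searched for libraries far from their group.

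For 6 mucosal barrier genes every PPK library lay above every PP library in sham and below in ADT. The value was -5.46 for Pigr, -5.14 for Dmbt1, -6.41 for Lypd8, -4.4 for Msln, -2.62 for Muc1 and -2.79 for Muc20. The difference was not tested for these genes, which were chosen with their values known.

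Among other mucins and mucus genes, the difference passed limma's adjusted threshold. It was -2.69 for the membrane mucin Muc13, 1.78 for Muc15, 1.23 for the gel-forming mucin Muc19, -5.19 for Clca1, 2.56 for Clca2, 2.01 for Olfm4 and -1.17 for Gp2. Muc19 was under 0.2 FPKM in every ADT library, so its value rests on the sham libraries. Muc15 and Clca2 reached the 1 FPKM of the filter only in PPK ADT, and Muc2 only in PP ADT, so these genes were bound to differ. For Muc2 it was -0.39, which became 0.003 with pseudocount 0.1 (limma adjusted p = 0.994); without any of PP sham A or B, PPK sham A or B and PPK ADT A or B its limma adjusted p was 0.0633 to 0.138.

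Among glycosylation genes it was 2.38 for Galnt6, -1.62 for B3gnt3, -1.5 for St3gal1 and -1.46 for B4galnt2. Among transport genes it was -1.58 for Rab11fip5, -1.31 for Fcgrt, -1.1 for Exoc4 and 0.58 for Rab25. Among transcription factors it was 2.72 for Klf4, 2.53 for Elf5 and 1.88 for Klf5. For Irf1 it was -1.44, with PP ADT libraries as far apart as 11.5 and 22.5 FPKM, and limma adjusted p rose to 0.0508 to 0.0642 without PP sham B, PPK sham A, PPK sham B or PPK ADT B. Among relatives of Lypd8, Msln and Dmbt1 it was -5.29 for Sftpd, 3.49 for Lypd3, 2.39 for Lypd2 and -1.82 for Lgals3bp.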

How the results depend on the processing

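Of the 47 fitted values of the mucosal barrier genes, the signs of those of Pigr and Dmbt1 for ADT with age in PP turned. Pigr went from 0.04 to -0.18 under quantile normalization. Dmbt1 went from -0.03 to 0.03 under median-of-ratios scaling, 0.05 under quantile normalization, 0.02 without PP sham replicate B and 0.01 without PP ADT replicate A. The other 45 kept their sign under every alternative run. With pseudocount 0.1, 32 of them moved by more than the spread between replicates, since low genes then differ more: Dmbt1 in PPK against PP ADT went to -3.00, Fcgbp for ADT with age in PPK to -8.15 and Muc4 for ADT with age in PP to 3.85. Median-of-ratios scaling moved 12 and quantile normalization 11, leaving out a library 3 to 12, and the replicate block 0, as did no filter. The filter at a mean of 5 FPKM kept 42 of the values, none of which moved.

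Counts of genes that passed were within 1.5 times those of the reported fit, except as follows. The filter at a mean of 5 FPKM tests fewer genes, and 4918 passed in PPK against PP ADT, 3933 for ADT with age in PP, 5056 for ADT with age in PPK and 4476 in the difference of genotype effects. In PPK against PP sham, leaving out 1 library gave 2649 to 3778 in place of 4000, the lowest without PP sham replicate A. In PPK against PP sham, median-of-ratios scaling turned the larger side of the calls, from 1920 higher and 2080 lower to 2017 and 1921. Leaving out either PP sham library also turned the larger side to higher. Counts of companion genes kept within 1.5 times under all alternatives. Libraries with the same letter did not deviate together across all genes tested (correlations of -0.00791 to 0.0566), and the reported fit did not pair them by letter. A pairing that touches few genes cannot be seen this way. With a replicate block 3755, 8182, 6013, 8626 and 7186 genes passed in the order of the comparisons. FPKM without counts gives no limit of detection, so a gene listed at 0, as Tff3 in PPK ADT, is not shown to be absent.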
